A study of Mus musculus with 18 samples.

Results

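The genes described here were 10 members of the mammalian circadian clock: Arntl, Clock, Per1, Per2, Per3, Cry1, Nr1d1, Nr1d2, Dbp and Cipc. They were picked by gene name from a table of read counts for 55487 genes in mouse frontal cortex, and Cipc was chosen by its measured difference when APP/PS1/FTnKO mice were set against APP/PS1. That comparison is therefore given below as a description. RNA was sequenced from 18 mice of 9 to 10 months, 6 per genotype with 3 males and 3 females each. The study asked how loss of protein farnesyltransferase (FT) in forebrain neurons alters the cortical transcriptome of a mouse model of amyloid deposition.

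By the study's methods, APP/PS1 mice carried the amyloid transgenes of that line together with homozygous floxed alleles of the FT β-subunit gene, Fntb. APP/PS1/FTnKO mice carried in addition a CamKIIα-driven Cre recombinase, which removes Fntb after birth in forebrain neurons and leaves it in glia, vessels and neurons without Cre. By the methods the WT controls were littermates with the same floxed alleles and neither transgene nor Cre, so all 3 groups shared floxed Fntb, whereas the series' design text calls the controls C57BL/6J. The tissue was whole frontal cortex, so a difference in RNA level can come from fewer cells of a type or from less RNA per cell, and these cannot be told apart. The hour of collection and the light schedule were not given in the sources used here. Each mouse is a separate animal.

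The clock is a feedback loop of transcription that runs in nearly every cell and repeats about daily. Arntl (also called Bmal1) and Clock form a dimer that binds E-box sequences and switches on the Per and Cry genes, whose proteins return to the nucleus and repress the dimer. A second loop is formed by Nr1d1 and Nr1d2 (Rev-erbα and Rev-erbβ), which are switched on by the dimer and repress Arntl, so Arntl RNA peaks at an opposite time of day to Dbp, Nr1d1 and Per3. Dbp is an output of the loop, a PAR bZIP transcription factor that binds D-box sequences. Cipc encodes a protein that binds Clock and inhibits the dimer.

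Sequences before the RefSeq start of 6 members are shown: the 4 whose windows held letters of a clock motif (Cipc, Per1, Cry1 and Per3), and Dbp and Arntl, which ran most strongly opposite to each other across mice. RefSeq windows (GRCm38.p6) of 250 bases before the transcription start were found for 9 of the 10 members, in 14 windows. There was none for Per2. The starts are those of RefSeq and differ from the GENCODE vM21 gene bounds for some members, so that the Cipc and Per1 windows lie inside the GENCODE gene and those of Dbp and Cry1 partly inside it. The windows were searched on both strands for CACGTG (E-box), TTATGTAA (D-box), TAGGTCA (ROR element) and TGACGTCA (CRE), and the capitals mark the matches, which are descriptions of letters and not binding sites. The window of Cipc is chr12:86947093-86947342 (+), that of Per1 chr11:69098699-69098948 (+) and that of Cry1 chr10:85185055-85185304 (-). The window of Per3 is chr4:151044666-151044915 (-), that of Dbp chr7:45704997-45705246 (+) and that of Arntl chr7:113207215-113207464 (+).
Cipc: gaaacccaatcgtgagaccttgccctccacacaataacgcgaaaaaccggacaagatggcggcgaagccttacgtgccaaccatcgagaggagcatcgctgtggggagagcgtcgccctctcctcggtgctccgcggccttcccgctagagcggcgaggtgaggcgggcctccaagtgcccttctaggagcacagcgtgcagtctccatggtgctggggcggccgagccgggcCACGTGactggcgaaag
Per1: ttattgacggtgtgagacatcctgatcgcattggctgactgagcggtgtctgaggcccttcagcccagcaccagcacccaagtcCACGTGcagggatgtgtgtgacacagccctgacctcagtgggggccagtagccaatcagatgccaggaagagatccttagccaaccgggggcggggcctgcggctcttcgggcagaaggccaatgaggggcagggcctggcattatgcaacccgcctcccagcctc
Cry1: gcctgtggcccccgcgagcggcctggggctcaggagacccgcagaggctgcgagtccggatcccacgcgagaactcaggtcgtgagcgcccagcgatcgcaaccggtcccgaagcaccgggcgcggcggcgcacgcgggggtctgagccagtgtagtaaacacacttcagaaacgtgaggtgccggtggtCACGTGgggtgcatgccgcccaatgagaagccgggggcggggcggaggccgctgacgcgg
Per3: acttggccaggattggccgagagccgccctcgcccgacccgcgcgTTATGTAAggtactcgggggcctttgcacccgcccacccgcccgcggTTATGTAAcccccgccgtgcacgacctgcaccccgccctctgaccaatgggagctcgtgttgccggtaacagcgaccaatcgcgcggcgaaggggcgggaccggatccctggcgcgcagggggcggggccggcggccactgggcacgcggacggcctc
Dbp: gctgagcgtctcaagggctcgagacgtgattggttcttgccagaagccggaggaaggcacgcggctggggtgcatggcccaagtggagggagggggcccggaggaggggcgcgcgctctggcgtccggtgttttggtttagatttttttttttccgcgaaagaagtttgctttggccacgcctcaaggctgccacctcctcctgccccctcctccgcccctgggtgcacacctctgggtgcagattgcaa
Arntl: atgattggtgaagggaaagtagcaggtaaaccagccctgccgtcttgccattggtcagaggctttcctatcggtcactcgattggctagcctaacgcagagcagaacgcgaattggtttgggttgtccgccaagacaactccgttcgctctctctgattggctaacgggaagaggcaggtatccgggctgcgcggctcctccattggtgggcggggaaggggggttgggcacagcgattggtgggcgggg

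The E-box letters began 17 bases before the start in Cipc, 60 bases before it in Cry1 and 166 bases before it in Per1, and 6.02% of all 32851 windows held them. Per3 held the D-box letters at 205 and at 158 bases before its start, and 0.819% of all windows held them. None of the 14 windows held the ROR element or the CRE as spelled, which stood in 2.23% and 1.55% of all windows. The Dbp and Arntl windows held none of the 4 motifs. Cipc and Per1 each had a second window, chr12:86946791-86947040 (+) and chr11:69099902-69100151 (+), not shown, which also held none of them.

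The libraries held 15925432 to 21030935 counted reads, and all 10 members passed the filter on low counts that left 17414 genes for testing. All 5 markers of cortical neurons (Snap25, Syt1, Slc17a7, Camk2a and Tbr1) had counts above 0 in each of the 17 mice tested. So did 9 of 12 cerebellar markers, so detection alone cannot tell the tissues apart. One WT female, mouse 19622, stood apart: its 12 cerebellar markers summed to 4130 CPM (counts scaled to library size), against 77.9 to 172 in the other 17 mice, and its cortical neuron markers summed to 3330 CPM, against 6040 to 10400. It was left out of the tests, as the study also left out a WT mouse, and its values are given apart. Fntb ranged from 14.1 to 32.2 CPM in the 5 remaining WT mice. Its range was 14.2 to 32.1 CPM in APP/PS1, and APP/PS1/FTnKO mice lay at 7.84 to 14.7 CPM, just overlapping both. Its log2 fold change was −0.93 (SE 0.27) against WT, with an edgeR FDR (Benjamini-Hochberg adjusted p) of 0.0658, and −0.77 (SE 0.26) against APP/PS1, with an FDR of 0.251. DESeq2, the alternative tool, called Fntb against WT, with 7.67% of the genes it tested, and not against APP/PS1, where it called 1.38%.

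In GRCm38 (GENCODE vM21), Cipc (ENSMUSG00000034157) lies at chr12:86947043-86965362 (+), Dbp (ENSMUSG00000059824) at chr7:45705088-45710203 (+) and Arntl (ENSMUSG00000055116) at chr7:113207465-113314126 (+). The members differed several-fold in level. Per kilobase of annotated exon, in the 5 WT mice, Nr1d1 stood at 34.1 ± 5.13 CPM (SD), Per1 at 32.0 ± 4.08, Cipc at 25.1 ± 1.17, Nr1d2 at 21.1 ± 2.42 and Dbp at 17.9 ± 4.48. Lower levels per kilobase were those of Per2 (9.15 ± 1.33), Clock (8.01 ± 0.448), Per3 (7.72 ± 0.506), Arntl (5.97 ± 0.94) and Cry1 (5.72 ± 0.608). Nr1d1 and Per1 differed by less than their SD, as did Clock and Per3, and Arntl and Cry1. Dbp shared 539 exon bases (18% of its exons) with Sphk2 on the opposite strand, and Nr1d1 shared 263 (8.55%) with Thra. The kit keeps strand, but the strand setting of the counting was not given in the sources used here, so how reads in these shared stretches were counted is not known here.

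**Figure D1:**
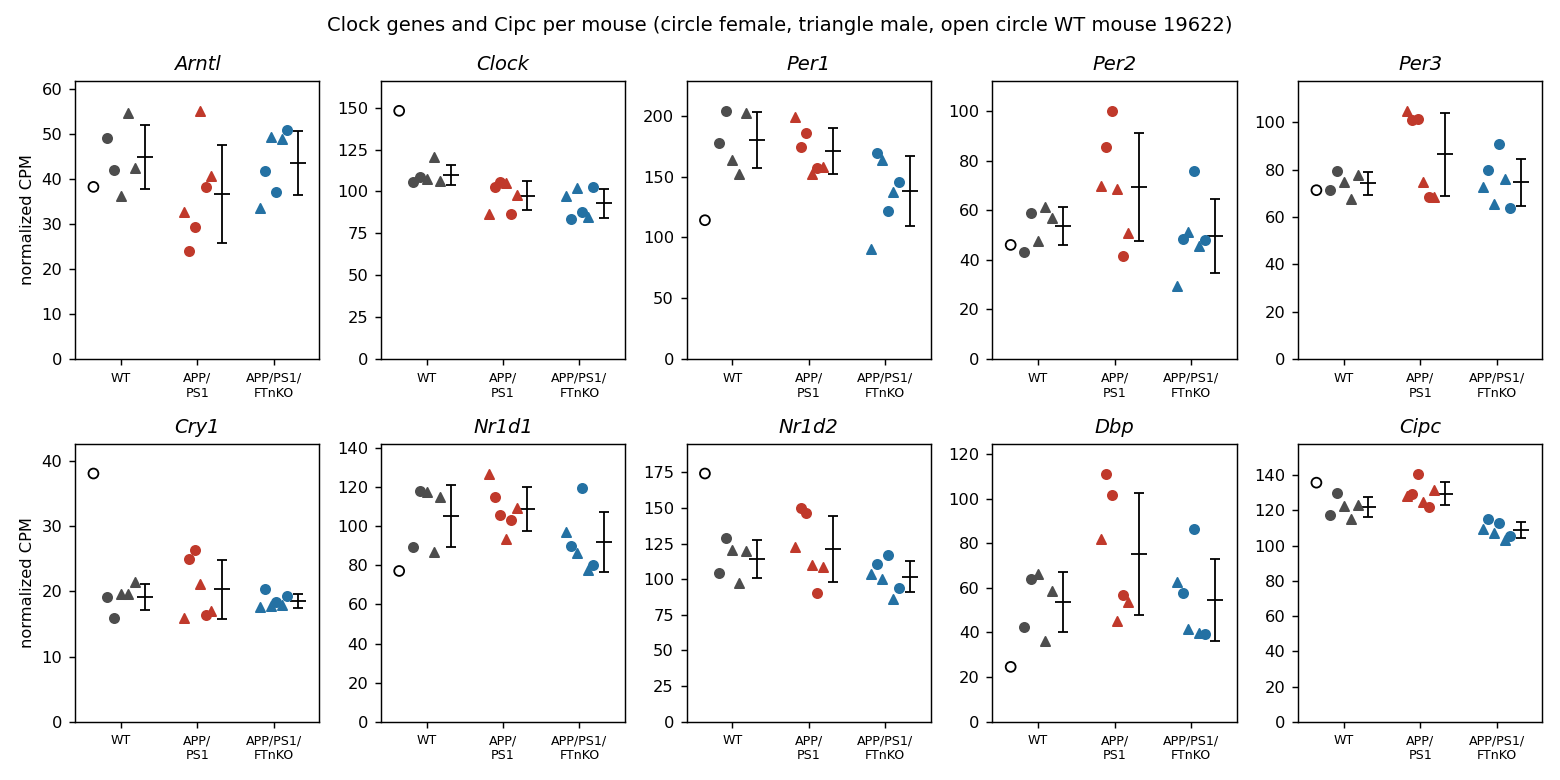
Normalized CPM of each clock gene (vertical axes, starting at 0) in every mouse by genotype. Filled circles are females, triangles males, the open circle is WT mouse 19622, and the bars give mean ± SD without that mouse. Cipc values of APP/PS1/FTnKO mice lie between 103.3 and 114.9, under every mouse of the other genotypes, whereas Dbp and Arntl spread widely within each genotype.

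Amyloid transgenes alone were examined first, in APP/PS1 against WT. By edgeR's quasi-likelihood test 0 of the 10 members passed the FDR threshold of 0.05, when 1.5% of all genes tested did. At an unadjusted p under 0.05 there was 1 member, Clock, when 14% of all genes reached it, and DESeq2 called 0 members and 2.14% of the genes it tested. Clock measured 105.7, 106.1, 107.6, 108.9 and 120.5 CPM in the 5 WT mice and 86.4, 100 and 106 CPM (lowest, median and highest) in APP/PS1. The WT and APP/PS1 values did not overlap, by 105.6 against 105.7 CPM at their nearest, and 2.4% of genes tested likewise had no overlap. The log2 fold change of Clock was −0.17 (SE 0.071, FDR 0.297).

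The other activator, Arntl, measured 36.3, 42.1, 42.4, 49.1 and 54.6 CPM in WT, and 23.95, 35.4 and 55.1 CPM (lowest, median and highest) in APP/PS1, for a log2 fold change of −0.29 (SE 0.16, FDR 0.446). The APP/PS1 range of Arntl held the whole WT range. Dbp measured 36.3, 42.5, 58.7, 64.1 and 66.1 CPM in WT and 44.9, 69.5 and 111 CPM in APP/PS1, for a log2 fold change of 0.42 (SE 0.24, FDR 0.439). Both genotypes overlapped for Dbp, with 3 of the 6 APP/PS1 mice above every WT mouse. Among the repressors, the log2 fold change was 0.33 for Per2 (FDR 0.488) and 0.21 for Per3 (FDR 0.443), while Per1 stood at −0.08 (FDR 0.816) and Cry1 at 0.07 (FDR 0.846). Nr1d1 and Nr1d2 stood at 0.04 (FDR 0.896) and 0.07 (FDR 0.82), and Cipc at 0.08 (SE 0.045, FDR 0.406). The 95% interval of the Cipc difference ran from −0.01 to 0.18 and that of Dbp from −0.08 to 0.93, so these mice fix the first closely and the second loosely. The median RIN was lowest in APP/PS1, at 8.2, and with RIN as a covariate the log2 fold change of Dbp was 0.04, that of Arntl −0.01 and that of Per3 0.05, none of them called.

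Neuronal FT loss on the amyloid background was then set against WT. This comparison reuses the 6 APP/PS1/FTnKO mice through which Cipc was chosen, so its Cipc values are no independent evidence and are also given as a description. Of the members, 1 passed the threshold, Cipc, when 3.87% of all genes tested did. The Clock inhibitor Cipc measured 115.3, 117.7, 122.5, 123.1 and 130.1 CPM in WT and 103.3, 105.7, 107.0, 109.4, 112.7 and 114.9 CPM in APP/PS1/FTnKO. No APP/PS1/FTnKO mouse reached the lowest WT mouse. Cipc fell by 0.17 on the log2 scale (SE 0.045, 95% interval −0.26 to −0.07, FDR 0.0458). The call was a narrow one: leaving out any 1 of the 11 mice compared raised the FDR above the threshold, up to 0.142 without WT mouse 19053, while the log2 fold change stayed between −0.19 and −0.14. With mouse 19622 included, the FDR was 0.0559.

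Clock had the next lowest p, with 83.8, 92.5 and 102 CPM (lowest, median and highest) in APP/PS1/FTnKO, again below every WT value given above. Its log2 fold change was −0.24 (SE 0.071, FDR 0.0676). Genes without overlap between these genotypes made up 5.6% of those tested, and Clock and Cipc were the 2 members among them. Per1, a repressor of the dimer that is also induced by neuronal activity, measured 152.3, 163.5, 177.5, 202.2 and 204.2 CPM in WT. In APP/PS1/FTnKO it measured 90.9, 121.4, 137.5, 145.6, 164.0 and 169.4 CPM, for a log2 fold change of −0.39 (SE 0.13, FDR 0.0844). The groups overlapped for Per1, with 4 of the 6 APP/PS1/FTnKO mice below the lowest WT mouse. The lowest of these, mouse 16974, also had the lowest Per2 (29.3 CPM) and the lowest RNA integrity number (RIN), 7.6. Without it the log2 fold change of Per1 was −0.29 (FDR 0.161). DESeq2 called 3 members lower, when it called 7.67% of the genes it tested: Cipc (FDR 0.00946), Clock (FDR 0.0313) and Per1 (FDR 0.0358).

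The remaining 7 members did not pass by either tool. Arntl, Dbp and Per3 had nearly the same mean in the 2 genotypes, with log2 fold changes of −0.03 (SE 0.16), −0.02 (SE 0.24) and 0.00 (SE 0.12). With RIN as a covariate these became 0.13, −0.23 and −0.08, none of them called, and Cipc stood at −0.18 (FDR 0.0472). Nr1d1 and Nr1d2, the repressors of Arntl, had −0.20 (FDR 0.307) and −0.18 (FDR 0.363), Per2 −0.15 (FDR 0.714) and Cry1 −0.06 (FDR 0.808). The median over the 10 members was −0.16, against 0.0053 over all genes tested. The summed cortical neuron markers moved as well: WT mice ranged from 7290 to 10400 CPM, APP/PS1 mice from 7150 to 10100 and APP/PS1/FTnKO mice from 6040 to 8190. EdgeR called 1 of these 5 markers lower in the last than in WT, where 1.65% of all genes were lower, and DESeq2 called 2, with 7.67% of all its genes called in either direction. The 3 astrocyte markers (Aqp4, Gfap and Slc1a3) summed to 830 to 919, 1110 to 2250 and 950 to 1930 CPM, and the 3 microglial markers (C1qa, Csf1r and P2ry12) to 174 to 197, 228 to 389 and 184 to 299 CPM. In APP/PS1/FTnKO against WT, edgeR called Gfap (FDR 0.00098) higher among the astrocyte markers and C1qa (FDR 0.00445) among the microglial ones, where 2.22% of all genes were higher, and DESeq2, with the same 7.67%, called 1 of each 3. None of these markers was at 0 in any of the 17 mice, and their part in the Cipc result was not tested.

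**Figure D2:**
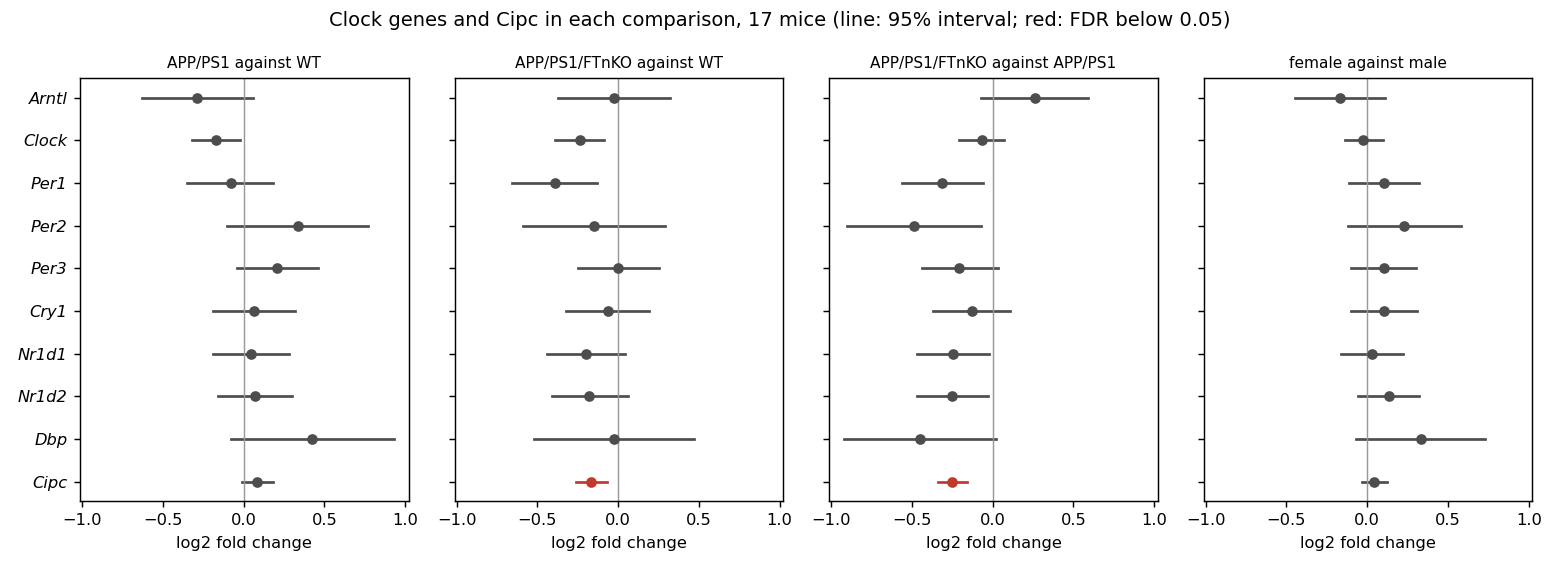
Log2 fold change of each clock gene (horizontal axis) with its 95% interval in the 3 genotype comparisons and between the sexes, from 17 mice. Red marks an edgeR FDR below 0.05, reached by Cipc at −0.17 against WT and at −0.25 against APP/PS1, the comparison that Cipc was chosen by.

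The effect of FT loss within the amyloid background, APP/PS1/FTnKO against APP/PS1, is the comparison in which Cipc was noticed, and is described here without support drawn from it. Cipc was the 1 member past the threshold, when 0.327% of all genes were, and DESeq2 called 1 member and 1.38% of the genes it tested. It measured 122.2, 124.6, 128.0, 129.3, 131.8 and 141.0 CPM in APP/PS1, all above the highest APP/PS1/FTnKO mouse at 114.9 CPM, and 0.97% of genes had no overlap here. The log2 fold change was −0.25 (SE 0.042, FDR 0.017). The FDR rose to 0.0658 without APP/PS1 mouse 19554, the highest of all 17, to 0.0634 with these 2 genotypes fitted alone and to 0.129 with mouse 19622 included, at log2 fold changes of −0.23, −0.25 and −0.25. With the Dbp level of each mouse as a covariate, added after the data were seen, the log2 fold change of Cipc was −0.21 (FDR 0.027) here and −0.16 (FDR 0.0199) against WT.

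Of the other members, Per1 (−0.31), Per2 (−0.48), Nr1d1 (−0.25) and Nr1d2 (−0.25) had unadjusted p-values under 0.05, as 11.5% of all genes did, with edgeR FDRs from 0.32 to 0.384. Dbp stood at −0.45 (SE 0.22), Per3 at −0.21, Cry1 at −0.13 and Clock at −0.07, while Arntl was the single member with a positive value, 0.26 (SE 0.16). Both genotypes overlapped for all of these. With RIN as a covariate Dbp stood at −0.27, Per3 at −0.13 and Arntl at 0.14, and Cipc at −0.24 (FDR 0.0123).

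Sex gave 0 called members by edgeR, when 0.0689% of genes were called. At an unadjusted p under 0.05 there were 0 members, when 6.7% of all genes reached it. DESeq2 called 0 members and 0.15% of the genes it tested. The member furthest from 0 was Dbp, at a log2 fold change of 0.33 in females against males (SE 0.19, FDR 0.804). No member's genotype difference was called as depending on sex by edgeR's test of the interaction, in which 0% of the 17414 genes passed, 0 members had an unadjusted p under 0.05 and 462 genes did. The lowest p among members was that of Cry1 (0.0923, FDR 1).

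Within each genotype the mice differed from each other far more in some members than in others. After genotype and sex were removed, the SD of log2 CPM over mice was 0.45 for Dbp, 0.40 for Per2 and 0.311 for Arntl, against a median of 0.173 over all genes, which placed them at the 86.9, 83.0 and 73.9 percentiles. Per1 (0.239), Per3 (0.219), Cry1 (0.216), Nr1d2 (0.21) and Nr1d1 (0.207) lay between, at the 58.0 to 63.9 percentiles. Clock, which is known to oscillate little in most tissues, had an SD of 0.124 (percentile 32.3). Cipc had the smallest, 0.0639 (percentile 3.77). The member with the closest replicates was thus also the one called, at a difference smaller than those of Per1, Clock and Nr1d1 against WT.

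These deviations were not independent between members. Over the 17 mice, 12 of the 45 pairs of members correlated past a Benjamini-Hochberg FDR of 0.05 (permutation within genotype, 100000 resamples, two-sided), 8 positively and 4 negatively. The share of pairs of all genes that would pass is not given here, so the count does not set the members apart from other genes. All 12 kept their sign in each of the 3 genotypes and without the 2 mice farthest from the median, where the smallest r was 0.58 in size, and 11 also passed by Spearman's rho. Dbp, the output gene, and Arntl, the activator, gave the lowest r of all pairs, −0.91 (rho −0.93, p = 2e-05, FDR 0.000675, r = −0.93 without the 2 farthest mice). It was −0.97 in WT, −0.93 in APP/PS1 and −0.87 in APP/PS1/FTnKO. A mouse high in Dbp was thus low in Arntl whatever its genotype. Arntl was also negatively related to its own repressors, Nr1d2 (r = −0.70, rho −0.80, p = 0.00614, FDR 0.0276) and Nr1d1 (r = −0.69, rho −0.76, p = 0.00305, FDR 0.0196), and without 2 mice these were −0.73 and −0.72. Among 17413 genes ranked from the highest r with Arntl, Dbp stood at 17412, Nr1d2 at 17155 and Nr1d1 at 17114.

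The highest positive pairs joined Dbp to Nr1d2, Nr1d1 and Per3, while Dbp with Per2 (r = 0.39) and with Cry1 (r = 0.24) did not pass. The 3 were Nr1d2 with Dbp (r = 0.85, rho 0.86, p = 3e-05, FDR 0.000675, without 2 mice 0.88), Nr1d1 with Dbp (r = 0.85, rho 0.82, p = 8e-05, FDR 0.0012, without 2 mice 0.82) and Per3 with Dbp (r = 0.82, rho 0.79, p = 0.00043, FDR 0.00484, without 2 mice 0.77). Per1, which carries E-box letters in the window shown above, had a pooled r of −0.02 to Dbp and 0.12 to Arntl, over genotypes that ran opposite ways. Per1 with Dbp was 0.71 in APP/PS1, 0.55 in WT and −0.66 in APP/PS1/FTnKO, and Per1 with Arntl was −0.52, −0.36 and 0.79 in that order, differences that were not tested. No pair of Per1, Per2, Cry1 or Clock passed over the 17 mice.

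**Figure D3:**
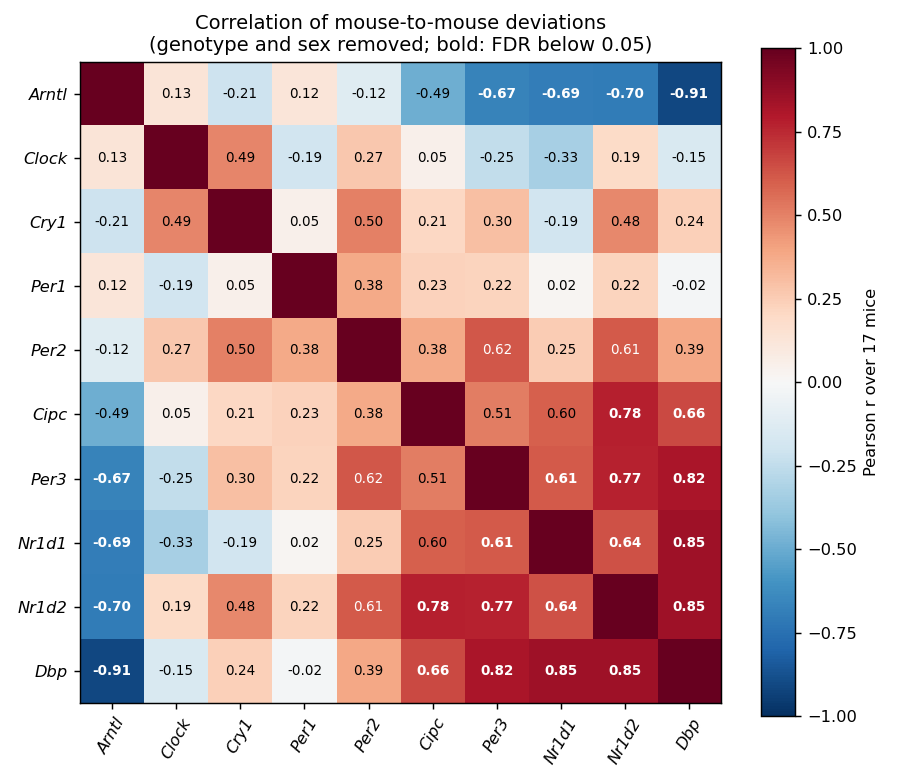
Pearson r between the deviations of each pair of clock genes over 17 mice, with genotype and sex removed (colour scale from −1 to 1, bold where the FDR is below 0.05). A block of positive values joins Per3, Nr1d1, Nr1d2 and Dbp at 0.61 to 0.85, and the Arntl row is negative against each of them.

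Small as its spread was, Cipc correlated with part of this block. Its deviations correlated with those of Nr1d2 (r = 0.78, rho 0.69, p = 0.00135, FDR 0.0108, without 2 mice 0.66) and of Dbp (r = 0.66, rho 0.56, p = 0.00933, FDR 0.0382, without 2 mice 0.63), though the second missed the threshold by rho (FDR 0.0868). The pairs with Nr1d1 (r = 0.60, rho 0.63, FDR 0.0601), Per3 (r = 0.51, rho 0.47, FDR 0.176) and Arntl (r = −0.49, rho −0.55, FDR 0.176) did not pass. Those with Per2 (0.38), Per1 (0.23), Cry1 (0.21) and Clock (0.05) were weaker. Among 17413 genes ranked from the highest r with Dbp, Nr1d2 stood at 10, Nr1d1 at 13, Per3 at 24 and Cipc at 344.

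**Figure D4:**
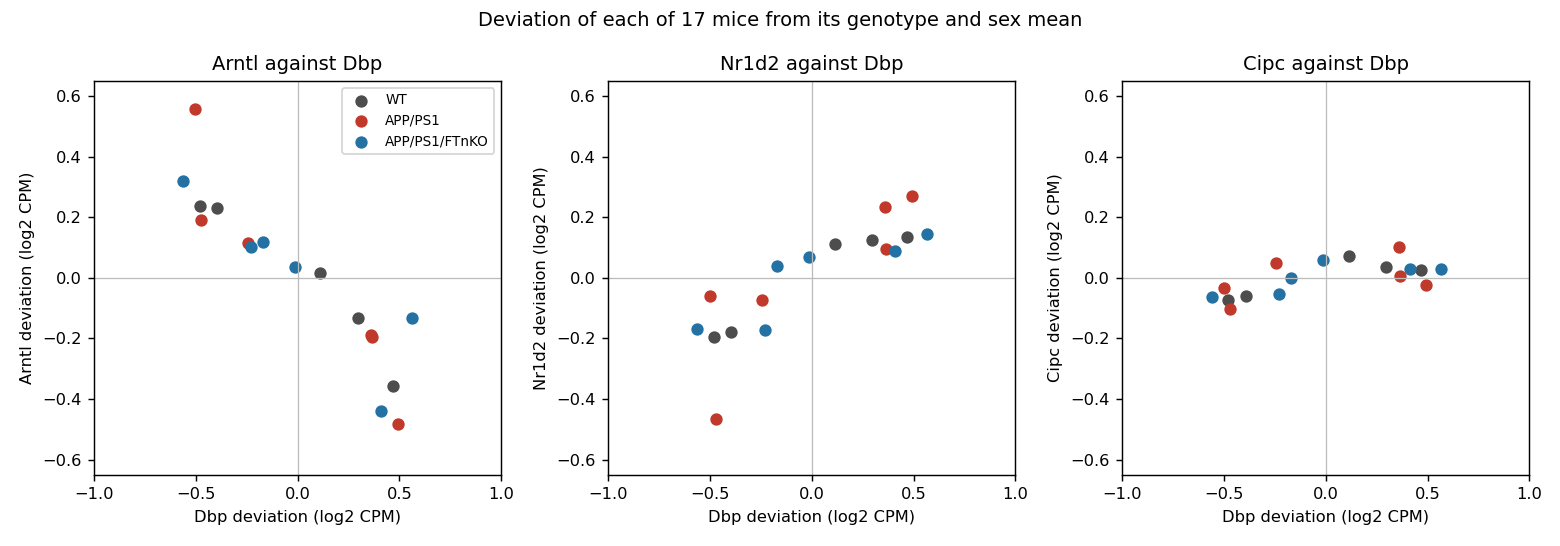
Deviation of each mouse from its genotype and sex mean, in log2 CPM, for Arntl, Nr1d2 and Cipc (vertical axes) against Dbp (horizontal axes), coloured by genotype. Arntl falls as Dbp rises (r = −0.91), Nr1d2 rises with it (0.85), and Cipc does so over a much narrower range (0.66).

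The log2 ratio of Dbp to Arntl gave the position of each mouse along this axis. In WT it ran from −0.59 to 0.86, with a median of 0.47. APP/PS1 mice had −0.29 to 2.21 (median 0.95), and those with FT loss −0.36 to 1.21 (median 0.12). The genotypes overlapped, and the widest range was that of APP/PS1. In mouse 19622, the mouse with high cerebellar markers, the ratio was −0.63, just below the −0.59 of WT mouse 19718. RNA quality moved with the same axis: RIN correlated with Arntl (r = 0.74, rho 0.73, permutation p = 0.00278, FDR 0.0278 over 10 members, without 2 mice 0.70), and with Dbp at r = −0.60 (rho −0.62, FDR 0.0988, without 2 mice −0.56). Median RIN was 8.7 in WT, 8.2 in APP/PS1 and 8.6 in APP/PS1/FTnKO. With RIN removed as well, an alternative added after the data were seen, 13 pairs passed and Arntl with Dbp stood at −0.87, Nr1d2 with Dbp at 0.83 and Nr1d2 with Cipc at 0.76.

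Genes outside the 10 were ranked by the likeness of their deviations to those of Dbp, Arntl and Cipc over the same 17 mice, with no test, among 17413 genes. Ciart, which encodes a repressor of the dimer, was the most like Dbp (r = 0.94), and Tmem268 (0.91), Gm15396 (0.90) and Gm11738 (0.88) were also near the top. Ccdc3 (−0.94), Arntl itself, Sphk2 (−0.90), Mical3 (−0.90) and Vgll4 (−0.89) were the least like it. Sphk2, which overlaps Dbp on the other strand, ran opposite to it.

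Nfil3, a D-box repressor that opposes Dbp, was the most like Arntl (r = 0.93), and Ap3d1 (0.92), Rbm28 and Igf2r (0.91 each) were also near the top. The lowest were Flywch2 (−0.92), Dbp, Gm11738 (−0.90), Eml2 and A730011C13Rik (−0.87 each). For Cipc the likeness was lower throughout, with Zfp715 (0.81), 1110004F10Rik and Tbl1x (0.79 each), E2f2 (0.78) and Nr1d2 at the top. B3gnt8 (−0.82), Zfp580 and Tlr6 (−0.81 each), Gm17931 (−0.80) and Kctd4 (−0.79) were at the bottom.

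Further genes of the clock were read from a list of 26, covering paralogs, the stabilising loop, kinases, ligases and outputs. None passed in APP/PS1 against WT, in APP/PS1/FTnKO against APP/PS1 or between the sexes by edgeR, with 4, 8 and 1 of the 26 at an unadjusted p under 0.05 (14%, 11.5% and 6.7% of all genes), while DESeq2 called 0, 1 and 0 of them and 2.14%, 1.38% and 0.15% of the genes it tested. Against WT, 1 of 26 was called higher in APP/PS1/FTnKO and 0 lower, a share near that of all genes (2.22% higher and 1.65% lower). DESeq2 called 2 of 26 and 7.67% of its genes, and 6 of 26 had an unadjusted p under 0.05, when 22.1% of all genes did. The called gene was Arntl2, a paralog of Arntl, which stood at 14.9 ± 0.834 CPM in WT, 14.9 ± 1.61 in APP/PS1 and 18.7 ± 2.78 in APP/PS1/FTnKO (log2 fold change 0.35, SE 0.09, FDR 0.0396). The list's medians were −0.019, −0.079 and −0.03 on the log2 scale in the 3 genotype comparisons. Npas2, a paralog of Clock, measured 57.8 CPM in WT, 54.2 in APP/PS1 and 60.9 in APP/PS1/FTnKO, with an FDR of at least 0.423 in each comparison. Mean Cry2, the partner repressor of Cry1, was 176, 178 and 164 CPM, and mean Rora, an activator of Arntl, was 64.8, 55.7 and 56.3 CPM. Neither passed.

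In the mouse-to-mouse deviations, 6 of these 26 genes correlated with Dbp, in a family of 38 relations chosen after the values were seen. The share of all genes that correlate with Dbp as strongly is not given here. Cipc, at r = 0.66, stood at 344 of 17413 genes ranked from the highest r with Dbp, and Hlf below lies under it. The PAR bZIP relatives Tef (r = 0.83, rho 0.85, permutation p = 5e-05, FDR 0.000633, without 2 mice 0.81) and Hlf (r = 0.61, rho 0.55, p = 0.0131, FDR 0.0497, without 2 mice 0.55) followed Dbp, as did Bhlhe41, a repressor of the dimer (r = 0.85, rho 0.84, p = 0.00018, FDR 0.00171, without 2 mice 0.81), and Ciart (rho 0.89, p = 2e-05, FDR 0.000633, without 2 mice 0.93). Nfil3 (r = −0.87, rho −0.87, p = 4e-05, FDR 0.000633, without 2 mice −0.87) and Npas2 (r = −0.69, rho −0.65, p = 0.00585, FDR 0.0318, without 2 mice −0.79) ran against it. Cry2 (−0.35) and Rora (0.44) did not pass. By rho Hlf (FDR 0.111) and Npas2 (FDR 0.0648) missed the threshold.

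Per1 and Per2 are also induced by neuronal activity, so 12 immediate early genes were read beside them. In APP/PS1/FTnKO against WT 4 of 12 were lower and 0 higher: Egr1 (log2 fold change −0.64, FDR 0.0208), Egr2 (−1.03, FDR 0.0169), Egr4 (−0.69, FDR 0.0246) and the synaptic regulator Arc (−0.95, FDR 0.0215), with a list median of −0.50. By edgeR 1.65% of all genes were called lower. DESeq2 called 6 of the 12 and 7.67% of the genes it tested, and 9 of the 12 had an unadjusted p under 0.05, when 22.1% of all genes did. The 5 cortical neuron markers were negative in the same comparison, at log2 fold changes of −0.08 to −0.46 with a median of −0.27, and edgeR called Slc17a7 (−0.46, FDR 0.0396). Their part in the values of the immediate early genes was not tested. In APP/PS1 against WT, APP/PS1/FTnKO against APP/PS1 and between the sexes, edgeR and DESeq2 called 0 of the 12, with 2, 5 and 0 at an unadjusted p under 0.05, beside the shares of all genes given above. In the family of 38 relations named above, 4 of the 12 correlated with Per1 across mice: Nr4a1 (r = 0.79, rho 0.75, permutation p = 0.00231, FDR 0.0176), Egr2 (r = 0.75, rho 0.73, p = 0.00536, FDR 0.0318), Arc (r = 0.74, rho 0.51, p = 0.00897, FDR 0.0426) and Egr4 (r = 0.71, rho 0.63, p = 0.013, FDR 0.0497). The share of all genes that correlate with Per1 as strongly is not given here. Within genotypes the r values of these 4 genes were 0.81 to 0.96 in APP/PS1/FTnKO, −0.02 to 0.68 in APP/PS1 and 0.30 to 0.51 in WT. Without mice 16974 and 18973 the pooled values became 0.68, 0.65, 0.42 and 0.48, and Arc and Egr4 missed the threshold by rho, so their relation rests in part on those mice. Dbp had r = −0.41 to Nr4a1 and −0.31 to Egr2.

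Per1 also responds to glucocorticoids. Of 12 glucocorticoid-responsive genes, Per1 among them, edgeR called 0 in APP/PS1 against WT, 0 in APP/PS1/FTnKO against WT and 1 in APP/PS1/FTnKO against APP/PS1, where it called 1.5%, 3.87% and 0.327% of all genes. In the same order DESeq2 called 2, 1 and 1 of them and 2.14%, 7.67% and 1.38% of the genes it tested, and 4, 6 and 2 had an unadjusted p under 0.05, as 14%, 22.1% and 11.5% of all genes did. Between the sexes both tools called 0, and 1 of the 12 had an unadjusted p under 0.05, as 6.7% of all genes did. The gene called by edgeR was Fkbp5, a chaperone partner of the glucocorticoid receptor, which was lower in APP/PS1/FTnKO (27.9 ± 2.88 CPM) than in APP/PS1 (39.5 ± 5.8 CPM), at a log2 fold change of −0.50 (SE 0.096, FDR 0.0356). It stood at 33.1 ± 4.29 CPM in WT. The list's median in that comparison was −0.15.

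Mouse 19622, kept apart, differed from the other 5 WT mice in the clock genes too. Its Clock (148 CPM), Cry1 (38.1 CPM), Nr1d2 (174 CPM) and Cipc (136 CPM) were above all of them, while its Per1 (114 CPM), Nr1d1 (77.1 CPM) and Dbp (24.6 CPM) were below all of them. Arntl (38.2 CPM), Per2 (46.0 CPM) and Per3 (71.3 CPM) lay within their range. Npas2 was at 8.01 CPM and Rora at 289 CPM in this mouse, against means of 57.8 and 64.8 CPM in the other WT mice. With it included, 6 of the 45 pairs passed instead of 12. Dbp with Cipc fell from 0.66 to 0.22, and Nr1d2 with Dbp from 0.85 to 0.28. Arntl with Dbp went from −0.91 to −0.70, while Nr1d1 with Dbp stood at 0.88 and Nr1d2 with Cipc at 0.83.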

How the data were processed

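Frontal cortex RNA of 18 mice was made into libraries with the TruSeq Stranded mRNA kit and sequenced in pairs. The authors trimmed reads with Trimmomatic 0.33, aligned them with HISAT2 2.1.0 to GRCm38 and deposited featureCounts read counts per gene, not normalized, for all 18 mice in 1 table. The submitters' processing notes name mm9 as well as mm10, and no coordinate was taken from the table. The number of unused sample columns was 0. Groups came from the genotype labels, and the mouse numbers pair no animals.

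The counts were tested with edgeR 4.0.16 (R 4.3.3): genes were kept by filterByExpr (minimum count 10), scaled by TMM, and the quasi-likelihood test was fitted to 17 mice with genotype and sex, with Benjamini-Hochberg adjustment over all genes (FDR 0.05). CPM values are TMM-normalized, and those of mouse 19622 come from a scaling of all 18 mice, which moved no member's CPM by more than 0.83%. DESeq2 1.42.0 was an alternative. Deviations of log2 CPM (prior count 2) were taken from the genotype and sex means. The fits were tested on simulated data. Exon overlaps came from GENCODE vM21.

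The members and gene lists were chosen with earlier results of these data known. The text names all members, the called genes and 8 fixed genes of the lists, genes from the 5 most and 5 least like Dbp, Arntl and Cipc, all pairs with Cipc, and the 3 highest and lowest pairs. Some genes that this rule covers, and 1 neuron marker, are not reported here. Nr4a1 was named after its value was seen. Alternatives left out each mouse, or used all 18 mice, no filter, other scaling, no sex term, RIN as a covariate, or only the genotypes compared.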

Additional observations from a re-analysis of the deposited data

Results flagged for a closer look

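In 40 sets of values, each a clock gene in 1 genotype, with and without mouse 19622, 3 held a mouse far from the others by Dixon's ratio, and chance alone marks about 1 in 20 such sets. Clock was high in WT mouse 19718, at 121 CPM, when the other 4 WT mice tested lay between 105.7 and 108.9 CPM. When mouse 19622 was counted as the sixth WT mouse, its Clock (148 CPM) and its Cry1 (38.1 CPM) stood apart from the others. Without mouse 19718, the log2 fold change of Clock in APP/PS1/FTnKO against WT was −0.20 (edgeR FDR 0.176).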

How the results depend on the processing

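In APP/PS1/FTnKO against WT, where 1 member was called, 0 were with all 18 mice, 3 with DESeq2, 2 with DESeq2 on all 18 mice (added after the data were seen), and 0 to 2 when single mice were left out. Without APP/PS1/FTnKO mouse 18973 the 2 were Clock (FDR 0.0476) and Per1 (FDR 0.0378), and without APP/PS1 mouse 16975 they were Clock (FDR 0.0452) and Cipc. Without a filter on low counts Per1 was called (FDR 0.0159) in place of Cipc (FDR 0.145). In APP/PS1/FTnKO against APP/PS1, where Cipc was called, 0 members were with all 18 mice or with the genotypes compared fitted alone, and 0 to 1 when single mice were left out. The pairs of members past the threshold went from 12 to 6 with all 18 mice. Among single members, 913 alternative values kept their direction and side of the threshold, 18 lost a call, 8 gained one and 47, none of them called, changed sign. No called value changed direction under any alternative run, and the causes of these changes were not tested. In APP/PS1 against WT, between the sexes and for the interaction, 0 members were called under every alternative run. Over all genes the calls ranged from 206 to 1304 in APP/PS1/FTnKO against WT, from 2 to 261 in APP/PS1/FTnKO against APP/PS1 and from 84 to 465 in APP/PS1 against WT. No paired analysis was possible because the labels give the genotypes no shared replicate numbers. With 5 or 6 mice per genotype, the SE of Dbp (0.24 on the log2 scale) was over 5 times that of Cipc (0.045), which limits what could be seen for Dbp.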
